A study of Oryza sativa with 12 samples.

Results

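The plasma membrane intrinsic proteins (PIPs) are the aquaporins of the plant plasma membrane, and 10 rice PIP genes, PIP1-1 to PIP1-3 and PIP2-1 to PIP2-7, were followed here by their locus identifiers among the 55986 genes of the deposited table. The names are the RefSeq spellings of the symbols that are also written with a semicolon between the digits. The libraries came from whole rice seedlings of the cultivar Nipponbare at 8 days after germination, as wild type (WT) or as *ntl3-1*, a single CRISPR-Cas9 line labelled NTL3-/- whose OsNTL3, a membrane-associated NAC transcription factor, is predicted to be truncated. Seedlings were kept at 29 ºC or moved to 45 ºC for 3 h, which gave 4 groups of 3 replicates (12 libraries). The labels give the genotype and whether heat was applied, while the temperatures, the duration and the allele name come from the study's methods. Nothing in the sources used here says whether the replicates of a group were separate cultures, so p-values measure the spread between these libraries.

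Aquaporins are channels that let water, and in some members other small neutral molecules, pass down a gradient. In plants the PIP1 and PIP2 subgroups differ in behaviour. PIP2 proteins make efficient water channels by themselves, whereas most PIP1 proteins move little water alone and depend on a PIP2 partner to reach the plasma membrane, as worked out mainly in maize. PIPs set much of the water permeability of root and leaf cells, and their transcript levels are known to respond to drought, salt and temperature in cereals. All 10 genes matched a RefSeq gene on the chromosome their locus identifier names. PIP1-1 (LOC_Os02g44630), PIP1-3 (LOC_Os02g57720) and PIP2-2 (LOC_Os02g41860) lie on chromosome 2, PIP1-2 (LOC_Os04g47220), PIP2-3 (LOC_Os04g44060) and PIP2-6 (LOC_Os04g16450) on chromosome 4, and PIP2-7 (LOC_Os09g36930) on chromosome 9. PIP2-4 (LOC_Os07g26630), PIP2-5 (LOC_Os07g26660) and PIP2-1 (LOC_Os07g26690) are neighbours on chromosome 7, with 0 protein-coding genes between PIP2-4 and PIP2-5 and 0 between PIP2-5 and PIP2-1 in the RefSeq annotation. PIP genes are alike in sequence. RSEM, which the study's methods name, divides reads that fit several genes by an estimate, so the split between close members is uncertain.

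Levels are FPKM as deposited (fragments of a gene divided by its transcript length and by the library's mapped total), so they can be set side by side between genes. Differences are on the scale of log2(FPKM + 0.1) and were tested with limma over 31681 genes, with Benjamini-Hochberg adjusted p-values. Being called up- or down-regulated took both a log2FC beyond 1 or -1 and an adjusted p no higher than 0.05. All 10 members passed the filter on low values. The FPKM of a library summed to between 610880 and 698971 at 29 ºC and to between 1153023 and 1369236 at 45 ºC, although the median log2FC of all tested genes with heat stress was -0.04 in both WT and *ntl3-1*. The heat responses of the abundant PIPs depend on which of these quantities is held constant, and both readings are given below. As checks of the labels, OsNTL3 was lower in *ntl3-1* than in WT at 45 ºC (28.4 to 34.1 FPKM against 57.5 to 87.5 FPKM, log2 difference -1.19, limma adjusted p = 0.00439), while at 29 ºC the difference of -0.67 was not called (limma adjusted p = 0.0663), and HSP22, a small heat shock protein, differed by 8.44 (log2) with heat stress in WT and by 8.66 in the mutant.

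In WT seedlings at 29 ºC the mean PIP levels ran from 2.99 to 735 FPKM. PIP1-2 and PIP1-1 led in WT with means of 735 ± 35 FPKM and 661 ± 61 FPKM (SD, n = 3), and their ranges overlapped. PIP2-1 followed at 485 ± 7 FPKM, PIP2-7 at 324 ± 41 FPKM and PIP2-6 at 227 ± 10 FPKM, each apart from its neighbour in the order in every library. The lower end was held by PIP2-2 (88 ± 9 FPKM), PIP1-3 (69.0 ± 1.5 FPKM), PIP2-3 (39.2 ± 7.3 FPKM), PIP2-4 (22.9 ± 2.7 FPKM) and PIP2-5 (2.99 ± 0.86 FPKM), again without overlap between neighbours. PIP1-3, PIP2-3, PIP2-4 and PIP2-5, 4 of the 5 lowest members, are known in rice mainly as root genes. The order in *ntl3-1* at 29 ºC differed for PIP2-7, which stood between PIP1-2 and PIP1-1 with a range that overlapped both.

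**Figure D1:**
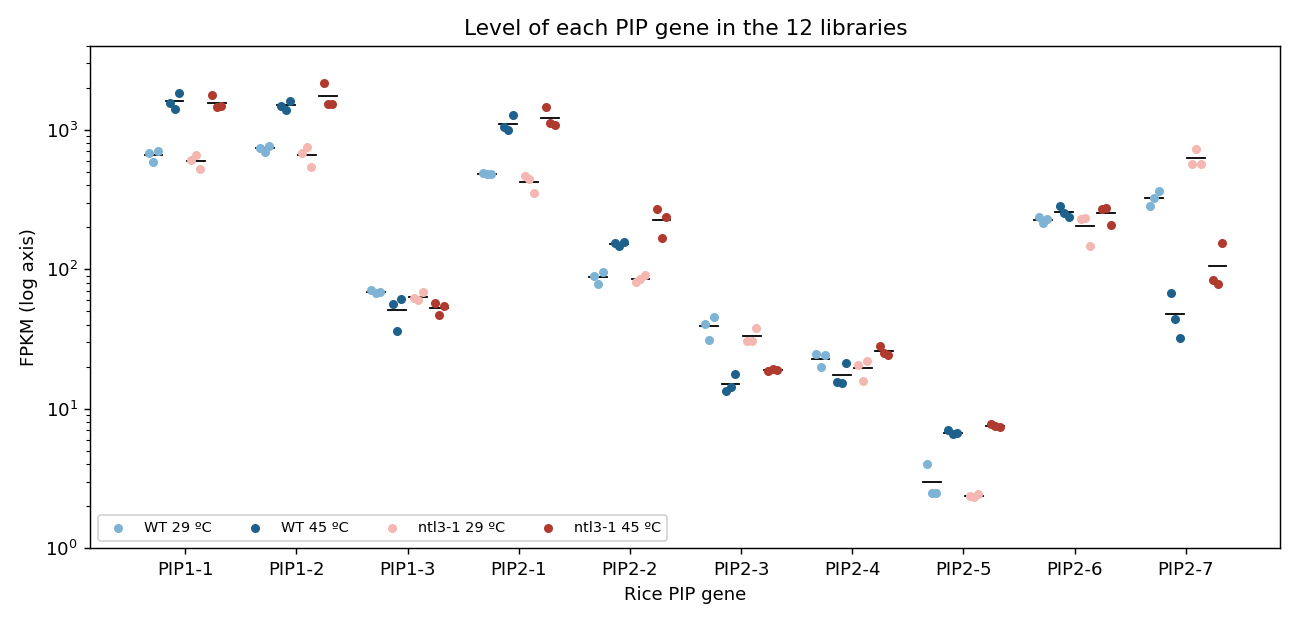
FPKM (log axis) of the 10 PIP genes in each library, with 3 points for each of the 4 groups and a line at the group mean. PIP1-1, PIP1-2 and PIP2-1 lie above the other genes at 45 ºC in every library, and PIP2-7 drops from 284 to 733 FPKM at 29 ºC to 32.2 to 154 FPKM at 45 ºC.

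After heat stress the family split. In WT, PIP1-1, PIP1-2, PIP2-1 and PIP2-5 were up-regulated in the deposited FPKM, PIP2-7 and PIP2-3 were down-regulated, and the other 4 members did not pass both thresholds. In *ntl3-1*, PIP2-2 was up-regulated as well and only PIP2-7 was down-regulated. The 4 up-regulated members of 10 in WT stand beside 13.2% of all tested genes, and the 2 down-regulated members beside 11.8%. For *ntl3-1*, with 5 up-regulated and 1 down-regulated member, the shares of all genes were 12.9% and 11.3%. Without the fold threshold, 5 members were up- and 3 down-regulated in WT (24.3% of all genes each way), and 6 and 2 in *ntl3-1* (23.7% each way). The median log2FC of the 10 members was 0.49 in WT and 0.89 in *ntl3-1*.

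PIP1-1, also known as RWC1, belongs to the subgroup that works with PIP2 partners. It measured 682, 593 and 708 FPKM in WT at 29 ºC against 1557, 1404 and 1849 FPKM at 45 ºC. In *ntl3-1* it measured 611, 665 and 528 FPKM at 29 ºC against 1783, 1449.5 and 1477 FPKM at 45 ºC. All heat-stressed libraries lay above all libraries at 29 ºC. The log2FC was 1.27 in WT (SE 0.17, limma adjusted p = 0.000153) and 1.38 in *ntl3-1* (SE 0.17, limma adjusted p = 9.11e-05).

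PIP1-2, the other abundant PIP1 gene, behaved alike. Its levels in WT were 744, 697 and 765 FPKM at 29 ºC against 1493, 1386 and 1611 FPKM at 45 ºC. For *ntl3-1* they were 686, 753 and 544 FPKM before and 2179.5, 1544 and 1527 FPKM after heat stress. Again the temperatures did not overlap, and the first heat-stressed *ntl3-1* library stood above the rest. The log2FC of 1.02 in WT (SE 0.19, limma adjusted p = 0.00133) was near the fold threshold and fell to 0.99 without WT replicate 2 at 29 ºC and to 0.97 without WT replicate 3 at 45 ºC, so that PIP1-2 was then not called. In *ntl3-1* it was 1.40 (SE 0.19, limma adjusted p = 0.000174).

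PIP1-3, known in rice as RWC3 and for its response to water deficit, did not share this pattern. It measured 70.5, 67.4 and 69.1 FPKM in WT at 29 ºC and 56.8, 35.9 and 61.3 FPKM at 45 ºC, so every heat-stressed WT library was below every WT library at 29 ºC. The log2FC was -0.46 (95% interval -0.84 to -0.09, limma adjusted p = 0.0442), short of the fold threshold. In *ntl3-1* the levels were 61.8, 59.9 and 69.4 FPKM at 29 ºC against 57.3, 47.1 and 54.5 FPKM at 45 ºC, with a log2FC of -0.27 (95% interval -0.65 to 0.11, limma adjusted p = 0.227).

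Among the PIP2 genes, PIP2-1 was the most abundant after heat stress, and its product is known for water uptake in rice roots. Control WT libraries held 493, 481 and 481 FPKM, and heat-stressed ones 1056, 992 and 1269.6 FPKM. In *ntl3-1* the values were 464, 447 and 351 FPKM at 29 ºC against 1457, 1114 and 1077 FPKM at 45 ºC. Heat-stressed libraries were higher without overlap in both genotypes. The log2FC was 1.18 in WT (SE 0.17, limma adjusted p = 0.000221) and 1.53 in *ntl3-1* (SE 0.17, limma adjusted p = 3.83e-05).

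PIP2-2 passed the fold threshold in one genotype. WT had 88.9, 78.6 and 96.3 FPKM at 29 ºC against 155, 148 and 156 FPKM at 45 ºC, and *ntl3-1* had 81.2, 84.7 and 91.3 FPKM at 29 ºC against 270.1, 167 and 237 FPKM at 45 ºC. The genotypes thus overlapped at 29 ºC and did not at 45 ºC. The log2FC was 0.80 in WT (95% interval 0.46 to 1.14, limma adjusted p = 0.00143) and 1.36 in *ntl3-1* (95% interval 1.02 to 1.70, limma adjusted p = 4.03e-05).

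PIP2-5, a root gene in rice, was the least abundant member in every library. It measured 3.99, 2.50 and 2.48 FPKM in WT at 29 ºC and 6.999, 6.58 and 6.67 FPKM at 45 ºC. The *ntl3-1* levels were 2.36, 2.33 and 2.44 FPKM at 29 ºC against 7.73, 7.48 and 7.36 FPKM at 45 ºC. Its log2FC was 1.18 in WT (SE 0.16, limma adjusted p = 0.000151) and 1.62 in *ntl3-1* (SE 0.16, limma adjusted p = 1.70e-05), the highest of the 10 members in *ntl3-1*. Its chromosomal neighbour PIP2-1 rose too, while PIP2-4 on the other side did not pass the test in the same direction in both genotypes.

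The largest difference with heat stress in the family was that of PIP2-7, a PIP known in rice for water transport and chilling tolerance. WT seedlings held 284, 324 and 365 FPKM under control conditions but 67.6, 43.9 and 32.2 FPKM at 45 ºC. In *ntl3-1* the levels were 573, 733 and 567 FPKM under control conditions but 84.4, 79.0 and 154 FPKM at 45 ºC. No library at 45 ºC reached the level of any library at 29 ºC. The log2FC was -2.81 in WT (95% interval -3.47 to -2.16, limma adjusted p = 2.16e-05) and -2.62 in *ntl3-1* (95% interval -3.27 to -1.97, limma adjusted p = 3.90e-05). It was called in both genotypes under all 24 alternatives, scalings included, with a log2FC between -3.78 and -2.56 in WT and between -3.55 and -2.44 in the mutant.

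PIP2-3, also a root gene, was down-regulated in WT. Its levels there were 40.9, 31.2 and 45.5 FPKM at 29 ºC against 13.4, 14.3 and 17.6 FPKM at 45 ºC. In *ntl3-1* it measured 30.8, 30.6 and 38.2 FPKM at 29 ºC against 18.7, 19.2 and 19.04 FPKM at 45 ºC. The heat-stressed libraries were lower without overlap in both genotypes. The log2FC was -1.36 in WT (95% interval -1.69 to -1.03, limma adjusted p = 3.03e-05, called under all 24 alternatives) and -0.80 in *ntl3-1* (95% interval -1.13 to -0.47, limma adjusted p = 0.00124), short of the fold threshold.

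PIP2-4 and PIP2-6, both known from rice to pass arsenite, passed both thresholds in neither genotype. PIP2-4 measured 24.6, 19.9 and 24.3 FPKM in WT at 29 ºC against 15.6, 15.3 and 21.3 FPKM at 45 ºC (log2FC -0.41, 95% interval -0.76 to -0.06, limma adjusted p = 0.0530). In *ntl3-1* it measured 20.6, 15.9 and 21.9 FPKM at 29 ºC against 28.2, 24.9 and 24.5 FPKM at 45 ºC (log2FC 0.42, 95% interval 0.07 to 0.77, limma adjusted p = 0.04999). PIP2-4 was the only member whose estimates had opposite signs in the genotypes in the deposited FPKM, and both were below 0 (-1.37 and -0.49) when the libraries were brought to a common FPKM sum. PIP2-6 ranged from 216 to 236 FPKM in WT at 29 ºC and from 238 to 283 FPKM at 45 ºC (log2FC 0.18, 95% interval -0.22 to 0.58, limma adjusted p = 0.441), and from 146 to 233 FPKM and from 207 to 275 FPKM in *ntl3-1* (log2FC 0.33, 95% interval -0.07 to 0.73, limma adjusted p = 0.162).

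Counted by libraries that did not overlap between temperatures, 6 members were higher, 3 were lower and 1 (PIP2-4) overlapped in WT. The same counts held in *ntl3-1*, where PIP2-6 was the one that overlapped. Over all tested genes, every heat-stressed library was higher for 26.7% and lower for 28.3% of genes in WT, and for 27.9% and 29.5% in *ntl3-1*.

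**Figure D2:**
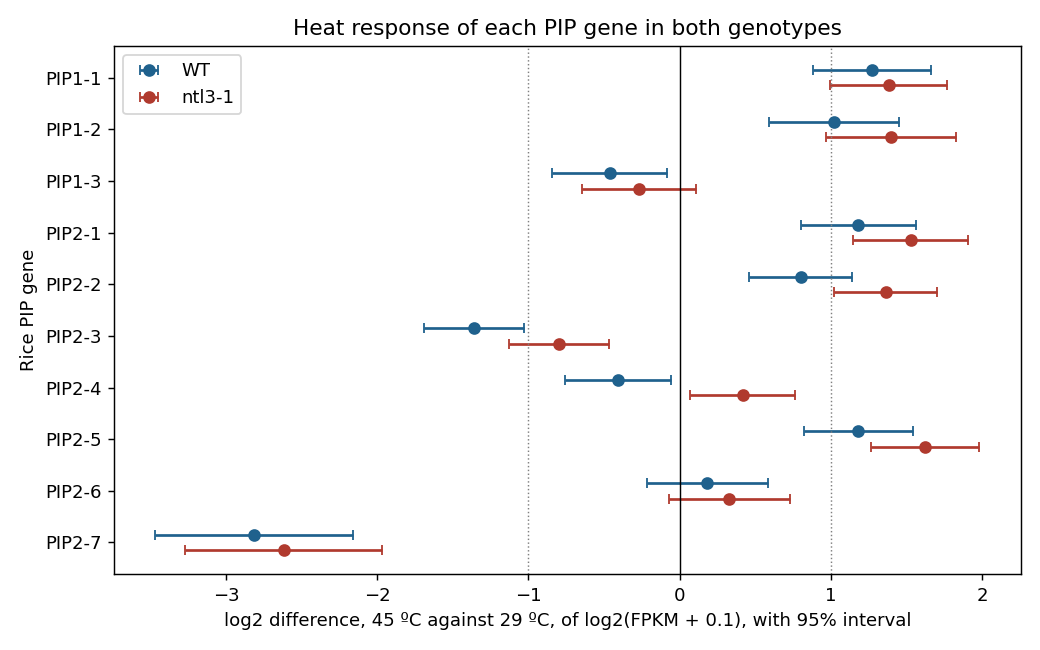
Difference between 45 ºC and 29 ºC on the log2(FPKM + 0.1) scale for each PIP gene, as limma estimates with 95% intervals in WT and *ntl3-1*, and dotted lines at the fold threshold of 1 in either direction. PIP2-7 (-2.81 in WT and -2.62 in *ntl3-1*) lies apart from the rest, and the *ntl3-1* estimate is to the right of the WT estimate for all 10 genes.

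Whether the abundant members PIP1-1, PIP1-2 and PIP2-1 were called rests on the scaling, and so does their direction in WT. When each library was rescaled to a common FPKM sum, the median log2FC of all genes moved to -0.80 in WT and -0.76 in *ntl3-1*, and PIP1-1, PIP1-2, PIP2-1 and PIP2-5 had values of 0.30, 0.05, 0.21 and 0.23 in WT, none of them called. In *ntl3-1* the same genes and PIP2-2 had values of 0.47, 0.48, 0.62, 0.73 and 0.45. All had a limma adjusted p between 0.00316 and 0.0206 and missed only the fold threshold, so none was called. Under that scaling 0 members were up-regulated in either genotype, beside 2073 up- and 12654 down-regulated genes of 31681 in WT and 1991 and 12006 in *ntl3-1*. PIP1-3, PIP2-3, PIP2-4 and PIP2-7 were then down-regulated in WT, and PIP1-3, PIP2-3 and PIP2-7 in *ntl3-1*. Values that had not been called turned as well, for PIP2-2 in WT to -0.17. A factor per library moves all members nearly alike, so the spread between members stays. Quantile normalization, which forces the same distribution on every library, left PIP2-5 as the only up-regulated member in both genotypes. It turned the WT values of PIP1-1, PIP1-2 and PIP2-1 to -0.085, -0.37 and -0.094, none of them called. Their *ntl3-1* values stayed positive, at 0.087, 0.032 and 0.31. Quantile normalization also left 3 members down-regulated in WT, where PIP1-3 reached -1.03, and 2 in *ntl3-1*, where PIP2-3 reached -1.10. Over all 31681 genes it gave 3779 up- and 4217 down-regulated in WT, and 3738 and 3949 in *ntl3-1*. Median-of-ratios factors ranged from 0.987 to 1.015 and changed no call of a member. The 1180 genes outside the family with a mean of at least 100 FPKM, a limit chosen after seeing the data, had a median log2FC of 0.67 in WT and 0.59 in *ntl3-1* in the deposited FPKM. That mean was taken over both temperatures, so genes abundant only at 45 ºC could enter. These medians therefore do not show how abundant genes in general responded.

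**Figure D3:**
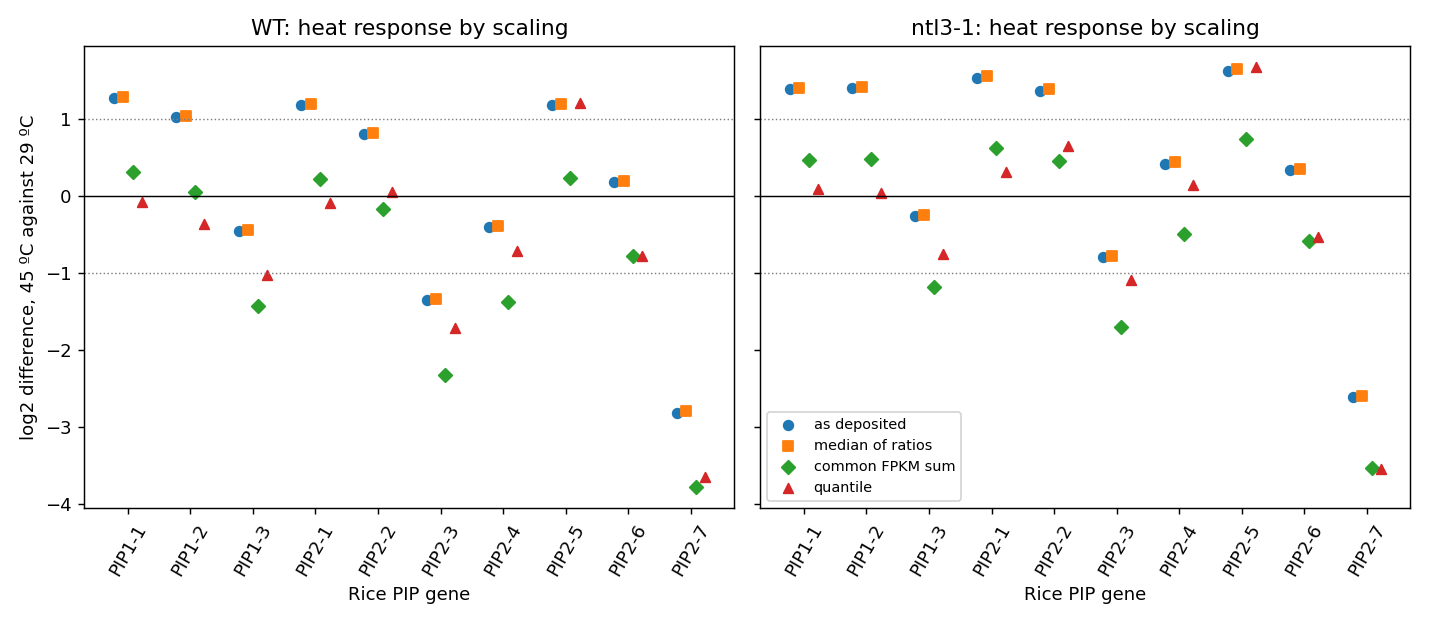
Difference between 45 ºC and 29 ºC for each PIP gene in WT (left) and *ntl3-1* (right) on the log2(FPKM + 0.1) scale under 4 scalings between libraries, with dotted lines at 1 and -1. PIP2-7 stays below -2 throughout, while PIP1-1 in WT goes from 1.27 as deposited to 0.30 with a common FPKM sum and -0.085 with quantile normalization.

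The summed level of the 10 genes can be read in the same 2 ways. It was 2654 ± 138 FPKM in WT at 29 ºC and 4756 ± 484 FPKM at 45 ºC (SD, n = 3), and 2716 ± 335 FPKM and 5223 ± 810.2 FPKM in *ntl3-1*. The ratio of 45 ºC to 29 ºC was 1.79 in WT and 1.92 in *ntl3-1*, and it ranged from 1.70 to 1.88 and from 1.75 to 2.04 with a library left out. As a share of all FPKM in a library, however, the 10 genes took 0.419% ± 0.015 in WT at 29 ºC and 0.382% ± 0.008 at 45 ºC, and 0.405% ± 0.047 and 0.412% ± 0.038 in *ntl3-1* (SD, n = 3). In *ntl3-1* the PIP sum thus grew by about as much as the total of all genes. In WT it grew by somewhat less, since the share was 0.410% to 0.436% at 29 ºC and 0.373% to 0.389% at 45 ºC. How many PIP transcripts a seedling held cannot be read from these values.

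The make-up of the PIP pool does not depend on a factor per library, and it changed with heat stress. PIP2-7 made up 12.2% ± 1.4 of the summed PIP FPKM in WT at 29 ºC and 1.02% ± 0.41 at 45 ºC, and 23.0% ± 1.9 and 2.09% ± 0.99 in *ntl3-1* (SD, n = 3). The share of PIP1-1 was 24.9% before and 33.6% after heat stress in WT, and 22.2% and 30.2% in the mutant, without overlap between temperatures. PIP1-2 had shares of 27.7% and 31.5% in WT against 24.3% and 33.3% in *ntl3-1*, and PIP2-1 had 18.3% and 23.2% in WT and 15.5% and 23.2% in *ntl3-1*. PIP1-1, PIP1-2 and PIP2-1 thus had larger shares at 45 ºC, and PIP2-7 and PIP2-6 smaller ones. The share of PIP2-6 was 8.55% at 29 ºC and 5.47% at 45 ºC in WT and 7.40% and 4.86% in *ntl3-1*. PIP2-3 had a share of 1.47% at 29 ºC and 0.318% at 45 ºC in WT, and 1.25% and 0.369% in *ntl3-1*.

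The ratio of summed PIP1 to summed PIP2 transcripts followed. It was 1.23 ± 0.05 in WT at 29 ºC and 1.96 ± 0.05 at 45 ºC, and 0.954 ± 0.016 and 1.82 ± 0.06 in *ntl3-1* (SD, n = 3). The 4 groups did not overlap, since libraries ranged from 1.18 to 1.28, from 1.92 to 2.02, from 0.937 to 0.969 and from 1.77 to 1.88. Much of this was PIP2-7. Without it the ratio was 1.69 ± 0.06 and 2.02 ± 0.04 in WT and 1.74 ± 0.09 and 1.93 ± 0.03 in *ntl3-1*. The genotypes then overlapped at 29 ºC but not at 45 ºC (1.98 to 2.06 in WT and 1.89 to 1.96 in *ntl3-1*). The temperatures stayed apart in both genotypes. Shares and ratios are a description and were not tested.

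**Figure D4:**
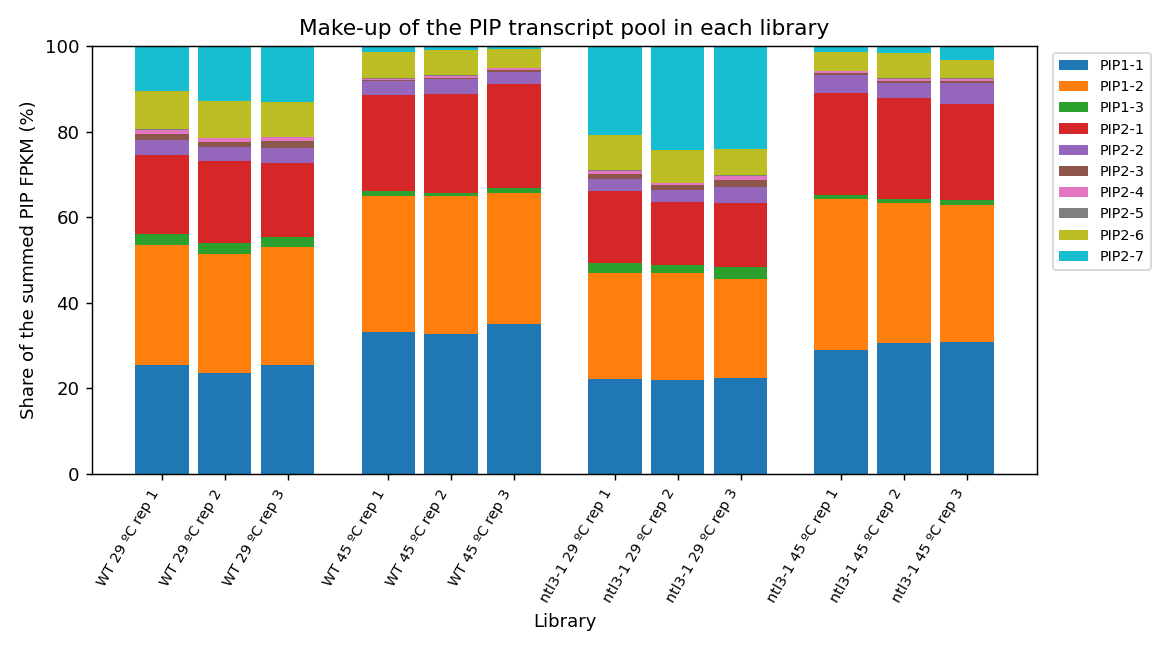
Share (%) of each PIP gene in the summed FPKM of the 10 genes, with 1 stacked bar per library (rep, replicate). The PIP2-7 segment averages 12.2% in WT and 23.0% in *ntl3-1* at 29 ºC and shrinks to 1.02% and 2.09% at 45 ºC.

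Between the genotypes 0 of the 10 members passed both thresholds with limma at 29 ºC, where 1.79% of all genes were called higher and 0.202% lower in *ntl3-1*. The count for 45 ºC was also 0, beside 0.877% and 0.256% of all genes. It stayed at 0 without the fold threshold, beside 2.35% and 0.398% of all genes at 29 ºC and 1.18% and 0.432% at 45 ºC. At an unadjusted p of at most 0.05 there was 1 member at 29 ºC (PIP2-7) and 4 at 45 ºC (PIP2-2, PIP2-3, PIP2-4 and PIP2-7), beside 13.6% and 14.0% of all genes. A missed threshold does not show that the genotypes were alike, and the intervals leave room for differences in several members.

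PIP2-7 showed the largest difference between genotypes of the 10. As listed above, every *ntl3-1* library held more of it than every WT library at both temperatures. The log2 difference of *ntl3-1* from WT was 0.94 at 29 ºC (95% interval 0.29 to 1.59, limma adjusted p = 0.153) and 1.14 at 45 ºC (95% interval 0.49 to 1.79, limma adjusted p = 0.1003). It passed the test at 45 ºC in 1 of 24 alternatives, that without WT replicate 1, with a difference of 1.42 (limma adjusted p = 0.0417). The 8 green shoot markers, 3 small subunits of Rubisco (RBCS), 3 light-harvesting proteins (Lhcb), PsaD and Rubisco activase (RCA), moved the same way. Their summed level was 25317 to 32124 FPKM in WT and 39895 to 48119 FPKM in *ntl3-1* at 29 ºC, and 24033 to 38142 FPKM and 36572 to 46367 FPKM at 45 ºC. The median log2 difference of the 8 was 0.50 at 29 ºC and 0.42 at 45 ºC, with 0 of 8 called with limma. Their part in the PIP2-7 difference was not tested.

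At 45 ºC, PIP2-2 (log2 difference 0.53, 95% interval 0.19 to 0.87, limma adjusted p = 0.148), PIP2-4 (0.59, 95% interval 0.24 to 0.93, limma adjusted p = 0.117), PIP2-3 and PIP2-5 were also higher in every *ntl3-1* library than in every WT library. That makes 5 of 10 members higher and 0 lower without overlap, where 7.24% and 6.71% of all genes were so. At 29 ºC only PIP2-7 was higher without overlap, and PIP2-1 and PIP2-5 were lower, beside 13.1% and 12.6% of all genes. The members share the same libraries, so these counts are not independent of each other.

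Whether the heat response itself differed between genotypes was tested as an interaction. It passed the threshold of an adjusted p of at most 0.05 with limma for 0 of 10 members, beside 0.0915% of all genes with a higher and 0.148% with a lower response in *ntl3-1*. At an unadjusted p of at most 0.05 there were 3 members (PIP2-2, PIP2-3 and PIP2-4), beside 7.62% of all genes. PIP2-4 had the highest estimate at 0.82 (95% interval 0.33 to 1.32, limma adjusted p = 0.283). PIP2-2 and PIP2-3 had estimates of 0.56 each, with 95% intervals of 0.08 to 1.04 and 0.09 to 1.03. PIP2-7, despite its level, had an estimate of 0.20 with a 95% interval of -0.73 to 1.12. All 10 estimates were above 0, with a median of 0.36, where 48.3% of all genes were above 0 and their median was -0.01. In the 22 alternatives 9 or 10 of the 10 stayed above 0 and none was called. Since the 10 members were measured in the same 12 libraries, the shared sign is a description.

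Roots and shoots were sampled together. The sum of 8 root markers (RCc3, Lsi1, Lsi2, NRT2.1, NRT2.3, AMT1-2, Nramp5 and HMA3) was 660 to 825 FPKM in WT at 29 ºC and 98.3 to 208 FPKM at 45 ºC, and 492 to 749 FPKM and 101 to 130 FPKM in *ntl3-1*. With limma, 7 of 8 were down-regulated in both genotypes, and none of the 8 was at 0 in a whole group. In bulk seedlings, fewer root cells and less of these RNAs per cell cannot be told apart. Of the 4 PIPs known mainly from roots, PIP2-3 was down-regulated in WT and PIP2-5 up-regulated in both genotypes in the deposited FPKM. PIP1-3 and PIP2-4 passed both thresholds in neither, although PIP1-3 was lower without overlap in both. With a common FPKM sum, PIP1-3, PIP2-3 and PIP2-4 were down-regulated in WT and PIP1-3 and PIP2-3 in *ntl3-1*, while PIP2-5 was called in neither. The part of the root markers in the PIP values was not tested. Green shoot markers were not called with heat stress (0 of 8 in either genotype).

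Of the other aquaporins, 19 genes were listed, which do not make up the whole family, and 18 of them were tested. Their values are those of the deposited FPKM, since the other scalings were followed for the PIP members only. The tonoplast intrinsic proteins (TIPs) carry water across the vacuolar membrane. TIP1-1, the most abundant aquaporin gene here, measured 1252, 1040.2 and 1272 FPKM in WT at 29 ºC and 9617, 6389 and 11616 FPKM at 45 ºC (log2FC 2.92, limma adjusted p = 4.45e-05), and its log2FC was 3.05 in *ntl3-1*. The log2FC of TIP1-2 was 4.998 in WT against 5.26 in *ntl3-1*, and TIP2-2 had 1.14 and 1.17. These 3 rises (13.2% of all genes in WT, 12.9% in *ntl3-1*) stand beside 4 TIPs down-regulated in WT (11.8%) and 3 in *ntl3-1* (11.3%). Of the latter, TIP2-1 (-3.64 and -3.72), TIP4-3 (-3.70 and -3.82) and TIP4-2 (-2.54 and -1.35) passed in both genotypes, and TIP4-1 passed in WT (-1.10) and had -0.95 in *ntl3-1*. Summed TIP levels averaged 2532 FPKM in WT at 29 ºC, close to the PIP sum of 2654 FPKM, and 11802 FPKM at 45 ºC, against 4756 FPKM for the PIPs.

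Among the 6 NIPs (nodulin 26-like proteins) listed, NIP3-3 was up-regulated in both genotypes (log2FC 5.25 and 5.71). NIP2-1, the silicon influx channel Lsi1 that is also 1 of the root markers, was down-regulated (-1.99 and -2.21), as was NIP3-1, a boron channel in rice (-1.44 and -1.49). None of the 2 SIPs (small basic intrinsic proteins) was called. Between the genotypes, 0 of the 17 tested TIPs, NIPs and SIPs were called at either temperature with limma. PIP2-8, a further PIP2 gene outside the 10, was listed at 0.156, 0 and 0.189 FPKM in WT and 0.488, 0.801 and 0.798 FPKM in *ntl3-1* at 29 ºC, and at 0, 0.0662 and 0 FPKM and 0.567, 0.416 and 0.648 FPKM at 45 ºC. It was called higher in *ntl3-1* at both temperatures (limma adjusted p = 0.0245 and 0.0126), at levels near the constant of 0.1 FPKM, so no fold is given.

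**Figure D5:**
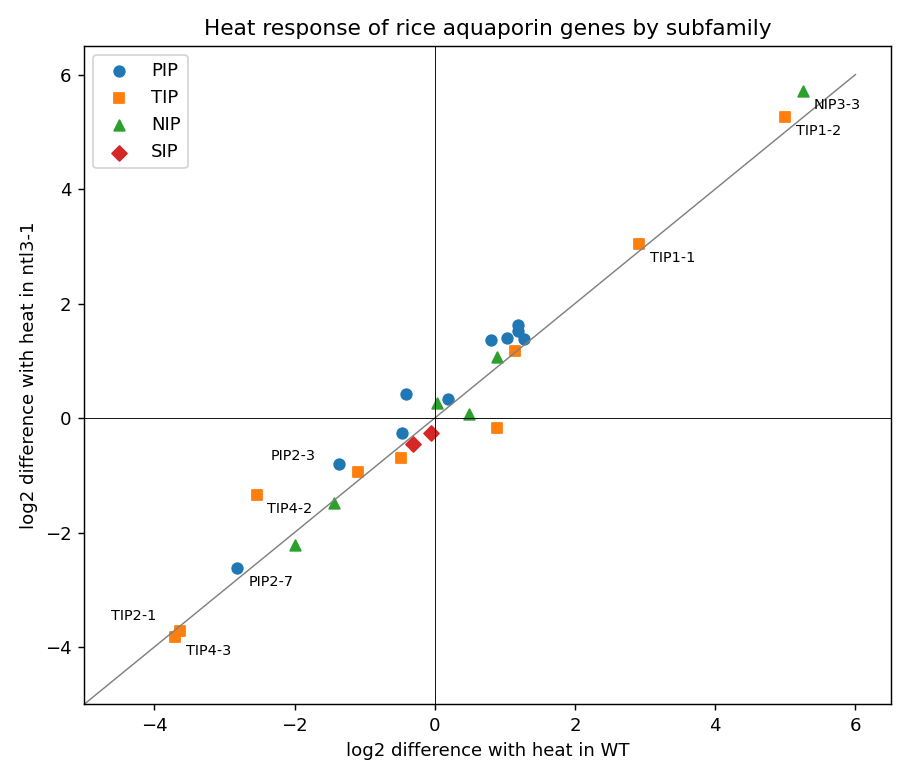
Difference between 45 ºC and 29 ºC on the log2(FPKM + 0.1) scale in WT (horizontal) and *ntl3-1* (vertical) for the PIP, TIP, NIP and SIP genes tested, with a grey line where both are equal. PIP genes lie between -2.81 and 1.62, inside the span of the TIP genes from -3.82 to 5.26.

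The genes whose profile over the 12 libraries was most like the mean of the standardized PIP profiles were LOC_Os07g13360, LOC_Os03g07920 and LOC_Os05g43490, with Pearson's r of 0.913, 0.908 and 0.904 among 13887 genes with a mean of at least 5 FPKM. The 12 libraries share 4 groups and their scaling, so these values describe likeness of pattern across groups more than within them. The mean profile blends members that ran in opposite ways, such as PIP1-1 and PIP2-7 (Pearson's r of -0.918), and is not that of every member.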

How the data were processed

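RNA-Seq libraries of rice seedlings (12, 3 per group) were analysed from the FPKM values that the authors deposited, 1 column per library. Per the study's methods, reads were filtered with SeqPrep and Sickle, aligned with TopHat to the MSU rice genome and quantified with RSEM. The submitters' processing notes name Bowtie 0.12.2 and the build mm8, a mouse build, whereas the table holds rice loci, and its header has the form of a Cuffnorm table. Whether the authors scaled FPKM further is not given in the sources used here. Without counts, the depth of the libraries is unknown. Errors come from the spread between replicates, pooled over the 4 groups and drawn toward a trend over all genes tested.

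Genes above 0 FPKM in at least 3 of 12 libraries (31681 of 55986) were transformed to log2(FPKM + 0.1), on which the fold change of low genes is understated. A linear model with 1 mean per group (8 residual degrees of freedom) was fitted with limma 3.58.1 in R 4.3.3, with variances that follow the mean. P-values are two-sided and Benjamini-Hochberg adjusted over all genes tested. The thresholds are those of the study, and the interaction had no fold threshold. Groups came from the labels. Replicates of a group had r of 0.94 to 0.958 on the log2 scale for genes with a mean of at least 1 FPKM, and 0 pairs were identical. The procedure was tested on simulated data without scaling differences between libraries, so that test does not bear on the choice of scaling.

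The 10 members, the other aquaporins and the marker lists were chosen with earlier results of these data known. All 10 members are named, with the other aquaporins that passed a test, the 3 genes most like the mean PIP profile, and OsNTL3 and HSP22 as checks of the labels. BiP1, another check, had log2FC values of 3.16 (WT) and 3.15 (*ntl3-1*). HSP22 and BiP1 served here only as checks that heat was applied. By qRT-PCR after a longer heat stress, the study reported reduced or non-significant induction of both genes in *ntl3-1*, which these values do not show. Alternatives were constants of 1 and 0.01 FPKM, other filters, 3 other scalings, separate models, the replicate number as a block, variances without trend, other call rules and each library left out. RefSeq (27 of 29 aquaporins matched) was used for names and neighbours only, since its assembly is not that of the files. Sequences are not shown.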

Additional observations from a re-analysis of the deposited data

How the results depend on the processing

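Of 1180 recomputed member values, 1150 kept their side of the threshold, 16 lost a call, 11 gained one and 3 called values turned. Among the 1150, 20 uncalled values changed sign. Scaling decided most of this. Quantile normalization turned WT PIP1-1 to -0.085, PIP1-2 to -0.37 and PIP2-1 to -0.094, and left 1 up- and 3 down-regulated members in WT, and 1 and 2 in *ntl3-1* (all genes: 3779 and 4217 in WT, 3738 and 3949 in *ntl3-1*). A common FPKM sum gave 0 up- and 4 down-regulated members in WT and 0 and 3 in *ntl3-1* (all genes: 2073 and 12654 in WT, 1991 and 12006 in *ntl3-1*). The ratio of the summed PIP level, whose alternatives were added after seeing the data, was 0.912 in WT and 1.02 in *ntl3-1* with a common FPKM sum and 0.746 and 0.819 after quantile normalization. Without a fold threshold 2 members were down-regulated in *ntl3-1*. With each library left out in turn, 3 to 4 members were up-regulated in WT, and 0 to 1 passed both thresholds between genotypes at 45 ºC. Over all alternatives, the limma adjusted p of that comparison went as low as 0.0104 for PIP2-2 and 0.0388 for PIP2-4. Their differences reached at most 0.73 and 0.74, short of the fold threshold. PIP2-5 was not called in WT with a constant of 1 FPKM (0.98).

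The replicate numbers did not pair the libraries, since the deviations of same-numbered libraries were correlated with r from -0.0757 to 0.0787 over 12 pairs. The replicate block left 4 up- and 2 down-regulated members in WT, 5 and 1 in *ntl3-1* and 0 between genotypes and for the interaction, where the lowest adjusted p was 0.178 with limma.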
